A study of Mus musculus with 14 samples.

Results

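*Ccl20*, *Ccl25*, *Ccl28*, *Cx3cl1*, *Cxcl16*, *Cxcl9*, *Cxcl10*, *Ccl5* and *Ccl6* encode chemokines that the epithelium, T cells and myeloid cells of the gut release. These 9 genes were taken by name from the 55889 genes counted in mice without dextran sulfate sodium (DSS) and the 54721 genes counted in mice after DSS. No cut on a measured value was used, but the list was chosen with earlier results of these data known. All 9 had the same identifier, position and length in both tables of counts, and all 9 had enough reads for the test in every comparison.

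Chemokines are small proteins that bind receptors on leukocytes and draw them along a gradient, so that the mix of ligands in a tissue helps to set which cells enter it. In the gut, *Ccl20* draws Ccr6-bearing dendritic cells and lymphocytes to the epithelium over lymphoid follicles, *Ccl25* draws Ccr9-bearing T cells mainly to the small intestine, and *Ccl28* draws Ccr10-bearing plasma cells to mucosal surfaces including the colon. *Cx3cl1* and *Cxcl16* are anchored in the membrane and are shed by the proteases *Adam10* and *Adam17*; their receptors are *Cx3cr1* on macrophages and *Cxcr6* on tissue T cells. *Cxcl9* and *Cxcl10* are induced by interferon gamma and bind *Cxcr3* on activated T cells and NK cells. *Ccl5* is made largely by T cells and NK cells and binds *Ccr1* and *Ccr3* among other receptors. *Ccl6* is known from mouse myeloid cells and binds *Ccr1*.

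RNA was sequenced from WT mice and from germline *MiR-29ab1-/-* (KO) mice, which lack miR-29a and miR-29b-1 in all cells and not in 1 cell type, to ask what the loss of these miRNAs changes in the colon before and after DSS. Without DSS there were 4 WT and 4 KO mice, and the other 3 WT and 3 KO mice drank 3.5% DSS, a polymer that injures the colon epithelium, for 3 days. The labels give C57BL/6N as the strain of all 14 mice and an age of 8 to 12 weeks, and their tissue is small intestinal crypts, where the study names colon. Each experiment was counted in a table of its own, so the effect of DSS and the difference between the 2 experiments cannot be told apart.

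Reads counted on genes totalled 14231157 to 18185020 per mouse without DSS and 20076719 to 23153149 per mouse after DSS. Levels are reads scaled to a common library size (CPM), on 1 scale over the 14 mice, on which 3 reads, taken as the floor, were 0.148 to 0.195 CPM without DSS and 0.141 to 0.179 CPM after it. The summed level of 8 colon markers was 2511 to 10524 CPM and that of 11 small intestine markers 167 to 512 CPM, and 6 smooth muscle markers summed to only 1.09 to 4.06 CPM, so the libraries hold almost no RNA of the muscle wall. The genes of the deleted miRNAs gave almost no reads, 0 on *Mir29a* in all 14 mice and 1 read on *Mir29b-1* in each of 2 KO mice, so the counts cannot check the genotype labels. Without DSS, WT replicate 1 and KO replicate 4 stood apart, with sums over 14 T cell markers of 185 and 229 CPM against 43.4 to 112 CPM in the other 6 mice.

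The mature sequences that the deleted *Mir29a* and *Mir29b-1* genes encode are shown from RefSeq on GRCm38.p6, with the seed at bases 2 to 8 in capitals. Both sequences lie on the minus strand, at chr6:31062673-31062694 and chr6:31063025-31063047. The levels of the mature miRNAs were not measured, so how much of each sequence remained in KO mice is not known from these data.
mmu-miR-29a-3p: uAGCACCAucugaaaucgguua
mmu-miR-29b-3p: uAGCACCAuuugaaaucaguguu

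Both miRNAs share 1 seed, and its 7-base complement TGGTGCT occurred in the 3′ UTR of 2904 of 21027 protein-coding genes (13.8%) of GENCODE vM21. Among the chemokines it occurred in 2 of 9 genes, in *Ccl28* at 2 places and in *Cxcl9* at 1. Among the 8 receptors described here it occurred in 2, in *Ccr3* once and in *Ccr9* at 2 places. The matches in the chemokines are printed with the 10 bases on either side and the match in capitals, starting at base 1271 and base 2802 of the *Ccl28* 3′ UTR and at base 496 of the *Cxcl9* 3′ UTR. A match of these letters is a description of the sequence and not evidence of binding.
Ccl28, base 1271: gccaagtaagTGGTGCTtagaggtttg
Ccl28, base 2802: cttcatcctgTGGTGCTcctgggaagc
Cxcl9, base 496: gtctcagagaTGGTGCTaatggttttg

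Per kilobase of the gene length given in the table, *Ccl6* had by far the highest level of the 9 in WT mice without DSS. Its median was 246 CPM per kb (range 209 to 289). *Ccl28* (30.4), *Ccl5* (24.0) and *Cx3cl1* (17.1 CPM per kb) followed, and neighbours among these 3 overlapped between mice. *Ccl25* (1.53) and *Ccl20* (1.21), and below them *Cxcl16* (0.557), *Cxcl9* (0.455) and *Cxcl10* (0.454 CPM per kb), formed the low end, where only the step from *Cxcl16* to *Cxcl9* was without overlap. Per kilobase of the longest coding transcript, *Ccl25* rose to 10.8 CPM per kb, since its gene model of 7445 bases holds a coding transcript of 1058 bases, and *Ccl5* (43.4) and *Ccl28* (39.3 CPM per kb) changed places within overlapping ranges. After DSS the order by gene length in WT mice was *Ccl6* (255), *Ccl28* (37.7), *Cx3cl1* (32.7), *Ccl5* (30.7), *Ccl20* (4.36), *Cxcl16* (2.54), *Cxcl10* (2.32), *Cxcl9* (1.87) and *Ccl25* (0.916 CPM per kb). By gene length *Ccl25* was thus the lowest of the 9 in place of *Cxcl10*. In KO mice after DSS, also by gene length, *Ccl6* (209.7 CPM per kb) was the highest and *Ccl25* (0.897 CPM per kb) the lowest. The low rank of *Ccl25* depended on the length used. Per kilobase of the longest coding transcript it ranked 5 of 9 after DSS, at 6.45 CPM per kb in WT mice and 6.31 in KO mice. On that scale *Cxcl9* was the lowest (1.95 and 2.68 CPM per kb).

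The 9 genes lie on 5 chromosomes of GRCm38. *Ccl5* (chr11:83525778-83530518) and *Ccl6* (chr11:83587882-83593087) lie near each other on the minus strand, as do *Cxcl9* (chr5:92321347-92328079) and *Cxcl10* (chr5:92346638-92348889). *Cxcl16* is also on chromosome 11 (chr11:70453983-70459984, minus strand), and *Ccl20* (chr1:83116766-83119167), *Ccl25* (chr8:4325210-4360020), *Cx3cl1* (chr8:94772009-94782427) and *Ccl28* (chr13:119623819-119654359) are on the plus strand. Exons of *Ccl25* share 204 bases with *Elavl1*, those of *Cxcl16* share 552 bases with *Zmynd15* and those of *Cxcl10* share 133 bases with *Art3*, each on the opposite strand. Whether strand was used in counting is not given in the sources used here, so reads in the shared bases cannot be assigned with certainty. *Zmynd15* was at 0 to 1.61 CPM and *Art3* at 0 to 0.239 CPM in the 14 mice, whereas *Elavl1* was at 41.3 to 74.6 CPM.

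Without DSS, none of the 9 chemokines differed between KO and WT mice at an adjusted p or at an unadjusted p under 0.05 in edgeR's quasi-likelihood test. Over all 15441 genes tested, 3 (0.0194%) passed the adjusted p and 566 (3.67%) the unadjusted p. DESeq2 also passed 0 of 9 at either p. The genotypes overlapped in all 9 chemokines, where 2.03% of all genes tested did not overlap. The fitted log2 fold changes (KO over WT) of the 9 had a median of 0.13, with 7 of 9 above 0, beside a median of -0.00 over all genes. In bulk RNA, here and below, fewer cells of a type and less RNA per cell cannot be told apart.

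Of the epithelial chemokines, *Ccl28* was at 146, 148, 117 and 157 CPM in WT replicates 1 to 4 and at 209, 153, 157 and 114 CPM in KO replicates 1 to 4. Its log2 fold change was 0.15 (SE 0.16, 95% interval -0.21 to 0.52), and the KO mice spanned the WT range. *Ccl25* was at 12.7, 9.55, 11.1 and 11.8 CPM in WT mice and at 7.00, 10.6, 9.36 and 8.11 CPM in KO mice. Only KO replicate 2 lay inside the WT range, and the log2 fold change of -0.36 (SE 0.17, 95% interval -0.73 to 0.01) had an edgeR adjusted p of 1.00. *Ccl20* was at 12.5, 1.88, 1.56 and 0.520 CPM in WT mice and at 3.53, 1.12, 0.988 and 1.62 CPM in KO mice. WT replicate 1 alone set the direction of *Ccl20*, whose log2 fold change was -1.20 (SE 0.95) with that mouse and 0.47 without it.

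The membrane-anchored *Cx3cl1* was at 52.9, 81.1, 81.5 and 34.9 CPM in WT mice and at 59.7, 85.2, 48.6 and 72.3 CPM in KO mice. *Cxcl16* was at 1.53, 1.66, 1.71 and 1.72 CPM in WT mice and at 1.98, 1.52, 1.05 and 2.27 CPM in KO mice. Their log2 fold changes were 0.08 (95% interval -0.57 to 0.74) and 0.04 (95% interval -0.60 to 0.69), and the 4 WT mice lay close together in *Cxcl16* (SD 0.0855 CPM) while the KO mice spread more widely (SD 0.537 CPM).

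The interferon gamma-induced *Cxcl9* was at 1.28, 1.05, 1.46 and 1.46 CPM in WT mice and at 1.74, 0.843, 3.25 and 3.70 CPM in KO mice. KO replicate 2 lay below all WT mice and the other 3 KO mice above them, with a log2 fold change of 0.86 (SE 0.42, 95% interval -0.08 to 1.79). *Cxcl10* was at 0.939, 0.939, 1.11 and 1.40 CPM in WT mice and at 0.558, 1.52, 0.988 and 3.89 CPM in KO mice. Its log2 fold change of 0.66 (SE 0.52, 95% interval -0.49 to 1.81) rested on KO replicate 4, and it was -0.10 without that mouse. KO replicate 4 thus had the highest level of both genes among the 8 mice.

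*Ccl5*, the chemokine of T cells and NK cells, was at 75.2, 16.7, 26.9 and 19.3 CPM in WT mice and at 13.9, 12.03, 36.8 and 89.0 CPM in KO mice. The 2 highest mice were WT replicate 1 and KO replicate 4, 1 of each genotype, and the log2 fold change was 0.13 (SE 0.80, 95% interval -1.77 to 2.03). Without KO replicate 4 it was -0.74, without WT replicate 1 it was 0.88 and without both 0.00091, so a difference of either direction was not detectable against this spread. The myeloid *Ccl6* was at 376, 408, 474 and 518 CPM in WT mice and at 639.6, 530.1, 406 and 380.4 CPM in KO mice, with a log2 fold change of 0.14 (SE 0.17, 95% interval -0.23 to 0.51).

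**Figure D1:**
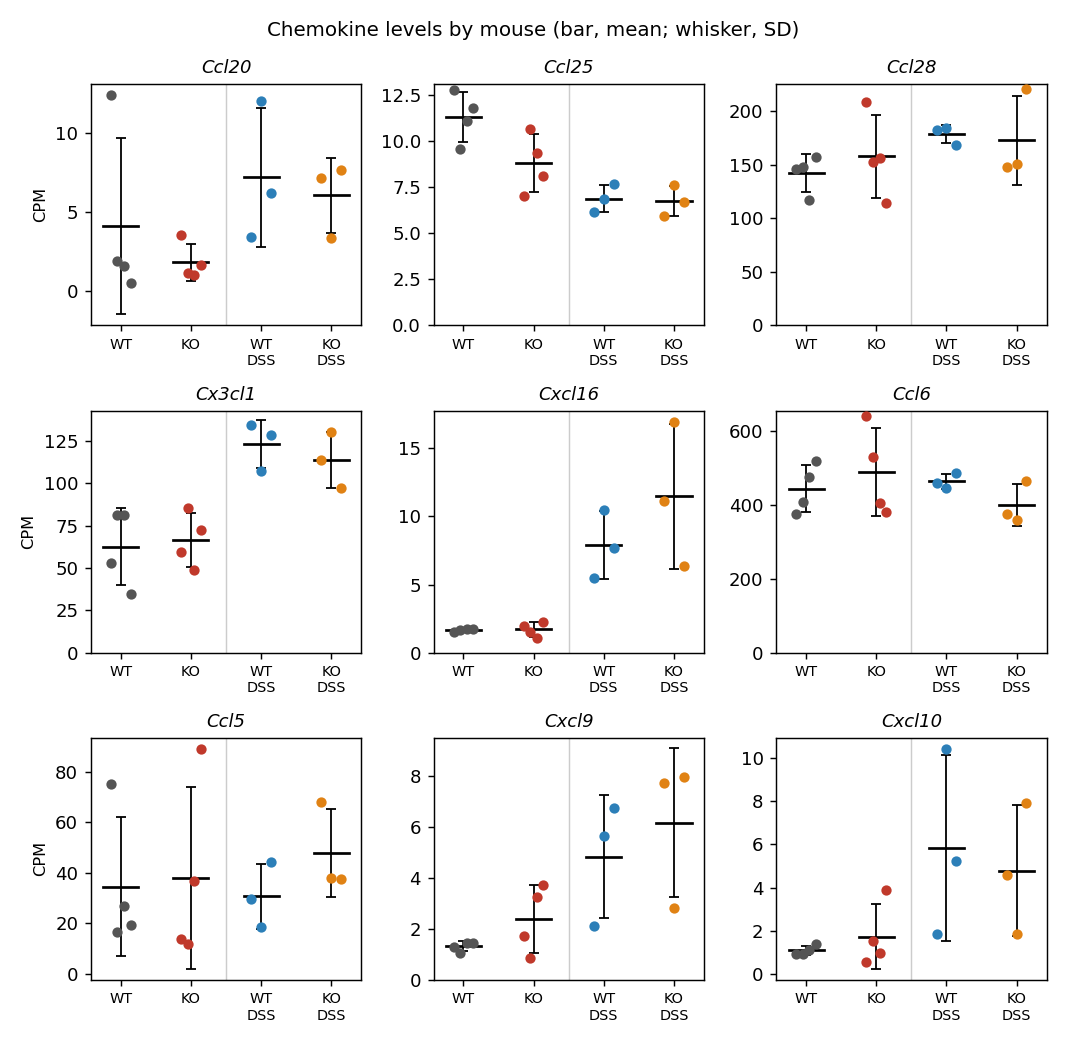
Level in CPM (y axis of each panel) of each of the 9 chemokines in the 14 mice, 1 panel a gene, with the groups WT, KO, WT after DSS and KO after DSS on the x axis; each point is 1 mouse, the bar is the group mean and the whisker its SD. WT and KO points overlap in every panel within an experiment, and Cxcl16 and Cx3cl1 are higher in all 6 mice after DSS than in the 8 mice without it.

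After DSS, again none of the 9 chemokines differed between KO and WT mice at an adjusted p under 0.05, nor at an unadjusted p under 0.05, in edgeR's test. Over all 14908 genes tested, 2 (0.0134%) passed the adjusted p and 1078 (7.23%) the unadjusted p. DESeq2 passed 0 of 9 at the adjusted p and 1, *Ccl5*, at the unadjusted p. No chemokine was without overlap between the genotypes, where 11.6% of all genes tested were. The median log2 fold change of the 9 was -0.05, with 3 of 9 above 0, beside -0.01 over all genes.

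The largest fitted differences belonged to *Ccl5* and *Cxcl16*, and values after DSS are given in the order of the deposited columns, which carry no mouse number that the labels share. *Ccl5* was at 29.5, 18.7 and 44.2 CPM in WT mice and at 68.0, 37.8 and 37.6 CPM in KO mice. Its log2 fold change was 0.63 (SE 0.39, 95% interval -0.32 to 1.58, edgeR adjusted p 0.718), with 1 WT mouse inside the KO range. *Cxcl16* was at 5.48, 10.5 and 7.68 CPM in WT mice and at 11.1, 17.0 and 6.35 CPM in KO mice. The log2 fold change of 0.53 (SE 0.38, 95% interval -0.34 to 1.41, edgeR adjusted p 0.739) came with the lowest KO mouse below 2 of the WT mice.

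*Cxcl9* was at 2.13, 5.65 and 6.72 CPM in WT mice and at 7.73, 2.81 and 7.95 CPM in KO mice after DSS. *Cxcl10* was at 1.84, 10.4 and 5.23 CPM in WT mice and at 4.59, 1.85 and 7.90 CPM in KO mice. In both genotypes 1 mouse, the first WT and the second KO, was low in the pair of them, and the log2 fold changes were 0.35 (95% interval -0.84 to 1.54) and -0.28 (95% interval -2.03 to 1.47).

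Among the epithelial genes after DSS, *Ccl28* was at 182, 185 and 169 CPM in WT mice and at 148, 150.5 and 220.5 CPM in KO mice. *Ccl25* was at 6.14, 6.82 and 7.63 CPM in WT mice and at 5.93, 7.58 and 6.68 CPM in KO mice. The 95% intervals of the difference ran from 0.756- to 1.23-fold for *Ccl28* and from 0.716- to 1.34-fold for *Ccl25*. *Cx3cl1* was at 134, 107 and 128 CPM in WT mice and at 114, 130.04 and 97.0 CPM in KO mice, with a log2 fold change of -0.12 (95% interval -0.42 to 0.18). *Ccl20* was at 3.40, 12.04 and 6.19 CPM in WT mice and at 7.15, 3.34 and 7.67 CPM in KO mice, with a wide interval of -1.41 to 0.90. *Ccl6* was at 458, 445 and 486 CPM in WT mice and at 376, 358 and 465 CPM in KO mice, where the log2 fold change of -0.22 (SE 0.13, 95% interval -0.50 to 0.07) had an edgeR adjusted p of 0.694.

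**Figure D2:**
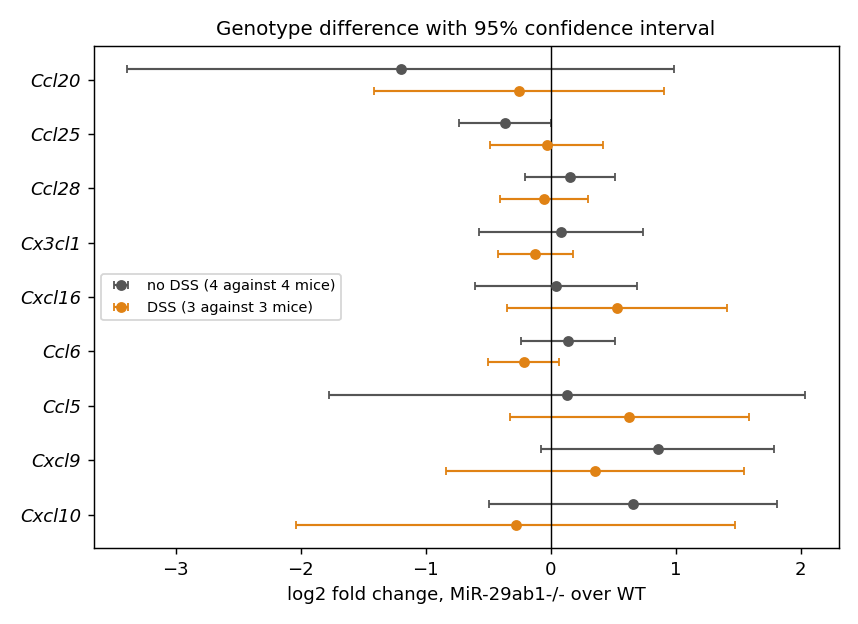
Log2 fold change (x axis, KO over WT) of the 9 chemokines (y axis) in edgeR's fit of each experiment, without DSS and after DSS; points are estimates, lines are 95% intervals and the vertical line marks no difference. Every interval crosses 0 in both experiments, and those of Ccl20 and Ccl5 without DSS and Cxcl10 after DSS are the widest.

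The receptors were read beside their ligands. They are carried mostly by leukocytes. Without DSS, 6 of the 8 receptors had enough reads for the test, and 0 of 6 passed an unadjusted p under 0.05. *Ccr6*, the receptor of *Ccl20*, and *Ccr3*, a receptor of *Ccl5* and *Ccl28*, had too few reads in each table (0 to 13 and 0 to 6 reads per mouse). Their exact two-sided permutation p without DSS was 0.286 and 0.714, where 4 mice against 4 cannot go below 0.0286, and after DSS 0.9 and 0.8, where 3 against 3 cannot go below 0.1.

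After DSS, 3 of the 6 receptors tested passed an unadjusted p under 0.05 with higher levels in KO mice (*Cxcr6*, *Ccr1* and *Ccr9*), beside 3.98% of all genes in that direction, and none passed the adjusted p in edgeR or DESeq2. The median log2 fold change of the 6 was 1.09, beside -0.01 over all genes. *Cxcr6*, the receptor of *Cxcl16*, was at 2.41, 2.31 and 4.43 CPM in WT mice and at 10.2, 6.63 and 4.56 CPM in KO mice, 2.33-fold higher (log2 fold change 1.22, SE 0.37, adjusted p 0.646 in edgeR). It was higher in every KO mouse than in every WT mouse, with the highest WT mouse close to the lowest KO mouse.

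*Ccr1*, which binds *Ccl5* and *Ccl6*, was at 0.803, 1.22 and 1.33 CPM in WT mice and at 2.04, 3.70 and 1.69 CPM in KO mice after DSS, 2.19-fold higher with an edgeR adjusted p of 0.646. *Ccr9*, the receptor of *Ccl25*, was at 1.84, 1.03 and 1.49 CPM in WT mice and at 5.06, 3.10 and 1.46 CPM in KO mice, 2.18-fold higher with an edgeR adjusted p of 0.657. The genotypes did not overlap in *Ccr1* but did in *Ccr9*, where the third KO mouse lay within the WT range. *Cxcr3*, the receptor of *Cxcl9* and *Cxcl10*, was at 1.80, 1.55 and 2.51 CPM in WT mice and at 7.04, 3.40 and 1.79 CPM in KO mice, a log2 fold change of 1.05 (SE 0.48) that did not pass. *Ccr10* and *Cx3cr1*, the receptors of *Ccl28* and *Cx3cl1*, had log2 fold changes of -0.13 and -0.07. In all, 2 of 8 receptors were without overlap between the genotypes, beside the 11.6% of all genes given above.

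The T cell markers leaned the same way as the receptors that passed, and 14 of 14 had a log2 fold change above 0 after DSS (median 0.74). Of these markers 4 of 14 passed an unadjusted p under 0.05 (*Cd5* 1.59, *Cd8b1* 1.16, *Cd247* 1.12 and *Trbc2* 0.81 on the log2 scale), and none passed the adjusted p. They summed to between 62.4 and 123 CPM in WT mice and to between 90.9 and 214 CPM in KO mice. Of the NK and cytotoxic cell markers 2 of 8 tested passed the unadjusted p, *Klrb1c* (1.76) and *Prf1* (1.34 on the log2 scale). Of the neutrophil markers 4 of 4 tested were above 0 (median 2.06), with *S100a8* (3.19 on the log2 scale) at the unadjusted p, and they summed to between 51.3 and 110.04 CPM in WT mice and to between 102 and 272 CPM in KO mice. Of the macrophage and dendritic cell markers 10 of 11 tested were above 0 (median 0.41) and none passed the unadjusted p, with sums between 100.3 and 122 CPM in WT mice and between 117 and 156 CPM in KO mice. The first 2 KO mice also had mitochondrial shares of 14.8% and 20.2% of reads, beside 7.43% in the third and 6.15% to 8.81% in WT mice. The part of these values in the receptor differences was not tested.

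With all 14 mice in 1 model, only *Ccr1* of the receptors passed an unadjusted p under 0.05 between KO and WT mice after DSS (1 of 7 in place of 3 of 6), and without the second KO mouse only *Cxcr6* did (1.27 on the log2 scale). Without DSS, *Cxcr6* was highest in the 2 mice that stood apart, at 7.02 CPM in WT replicate 1 and 11.2 CPM in KO replicate 4 against 1.49 to 5.87 CPM in the other 6. Without both mice, *Cxcr6* alone of the receptors passed the unadjusted p without DSS, with a log2 fold change of 1.06, and 0 of 9 chemokines did.

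**Figure D3:**
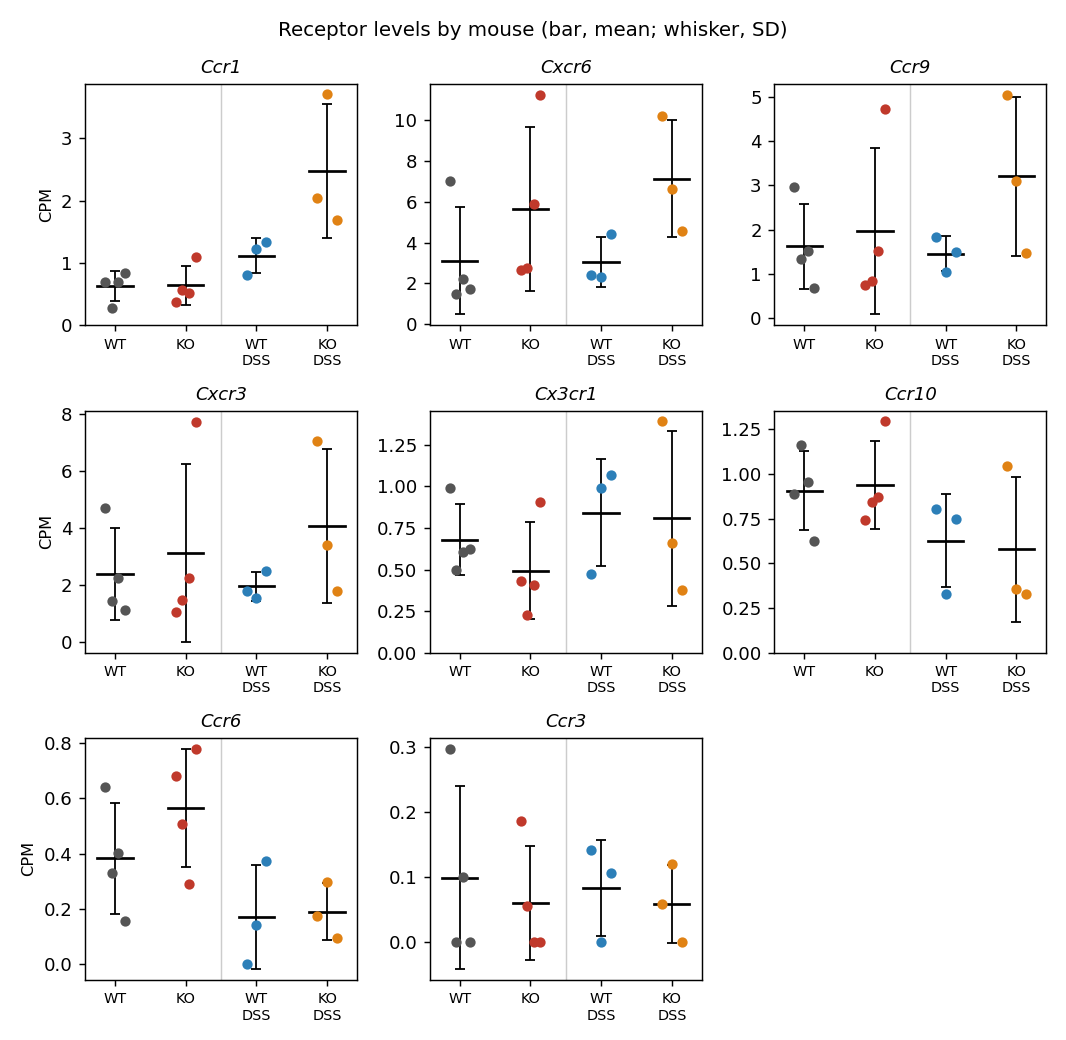
Level in CPM (y axis of each panel) of 8 receptors in the 14 mice by group (x axis); each point is 1 mouse, the bar is the group mean and the whisker its SD. After DSS the 3 KO points lie above the 3 WT points for Ccr1 and Cxcr6, while without DSS 1 WT and 1 KO mouse lie above the rest of their groups for Cxcr6.

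Between the 2 experiments, 4 of the 9 chemokines were higher after DSS in WT mice (*Cxcl16*, *Cxcl10*, *Cxcl9* and *Cx3cl1*) and 1 was lower (*Ccl25*) at an edgeR adjusted p under 0.05. In KO mice 3 were higher (*Cxcl16*, *Cxcl9* and *Cx3cl1*) and 0 were lower. Of all 16370 genes tested over the 14 mice, 20.2% were higher and 18.1% lower in WT mice, and 23.2% were higher and 22.7% lower in KO mice, so that calls between the experiments were common. The groups did not overlap in 6 of 9 chemokines in WT mice, where 43.3% of all genes did not, and in 2 of 9 in KO mice, where 48.3% did not. The values of the single genes follow.

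*Cxcl16* had the smallest p of the 9 in both genotypes. From 1.53 to 1.72 CPM in WT mice it went to 5.48 to 10.5 CPM after DSS, 4.75-fold higher (log2 fold change 2.25, SE 0.33, edgeR adjusted p 0.000128). In KO mice it went from 1.05 to 2.27 CPM to 6.35 to 17.0 CPM, 6.72-fold higher (log2 fold change 2.75, SE 0.33, edgeR adjusted p 1.59e-05). All 6 mice after DSS lay above all 8 without it, and *Cxcl16* passed under every alternative computed in both genotypes, with log2 fold changes of 2.01 to 2.46 in WT mice and 2.38 to 3.04 in KO mice. Its shedding protease *Adam10* was also higher after DSS (log2 fold changes 0.28 and 0.30, edgeR adjusted p 0.0126 and 0.00657 in WT and KO mice), and *Adam17* passed in neither genotype.

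*Cx3cl1*, the other membrane-anchored chemokine, went from a mean of 62.6 ± 22.8 CPM (SD, 4 mice) to 123 ± 14.3 CPM (SD, 3 mice) in WT mice, 1.97-fold higher (log2 fold change 0.98, SE 0.26, edgeR adjusted p 0.0107). In KO mice it went from 66.4 ± 15.8 to 114 ± 16.5 CPM, 1.71-fold higher (log2 fold change 0.77, SE 0.26, edgeR adjusted p 0.0281). No mouse without DSS (34.9 to 85.2 CPM) reached the lowest mouse after it (97.0 CPM). In KO mice the call was lost without the filter on low counts (edgeR adjusted p 0.083), without KO replicate 1 or 3 (0.065 and 0.0702), without the first or the second KO mouse after DSS (0.0626 and 0.0936), and without WT replicate 1 and KO replicate 4 together (0.0513).

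Markers of the epithelium, which can make both chemokines, rose as well. In each genotype 9 of 10 passed the adjusted p, beside 20.2% (WT) and 23.2% (KO) of all genes. The marker sum was 9934 to 13896 CPM without DSS and 21155 to 26295 CPM after it, with 0 of 10 defining markers at 0. Its part in the rise of *Cxcl16* and *Cx3cl1* was not tested.

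*Cxcl10* was 5.28-fold higher after DSS in WT mice (log2 fold change 2.40, SE 0.66, edgeR adjusted p 0.0116), from a mean of 1.10 ± 0.220 CPM (SD, 4 mice) to 5.82 ± 4.31 CPM (SD, 3 mice). The second WT mouse after DSS was at 10.4 CPM, and without it the log2 fold change was 1.70 with an edgeR adjusted p of 0.0684. In KO mice the log2 fold change was 1.47 (SE 0.65, edgeR adjusted p 0.0784), and KO replicate 4, at 3.89 CPM without DSS, lay within the range after DSS. It passed without that mouse (2.22, edgeR adjusted p 0.012), without the second KO mouse after DSS (1.87, edgeR adjusted p 0.0405) and with DESeq2 on all mice (1.46, adjusted p 0.0392).

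*Cxcl9* was 3.66-fold higher after DSS in WT mice (log2 fold change 1.87, SE 0.49, edgeR adjusted p 0.00843), with each mouse after DSS above each mouse without it. In KO mice it was 2.60-fold higher (log2 fold change 1.38, SE 0.48, edgeR adjusted p 0.0294), with means of 2.38 ± 1.33 CPM (SD, 4 mice) and 6.16 ± 2.91 CPM (SD, 3 mice). The second KO mouse after DSS, at 2.81 CPM, lay within the range without DSS, and the call was lost without the filter on low counts (edgeR adjusted p 0.0551), without KO replicate 1 or 2 (0.072 and 0.0668) and without the first or the third KO mouse after DSS (0.0996 and 0.104). Of the genes that carry the interferon gamma signal to these 2 chemokines, 5 of 9 in WT mice and 4 of 9 in KO mice were higher at the adjusted p. Of all genes 20.2% and 23.2% were. *Irf1*, a transcription factor that interferon gamma induces, rose by 1.26 and 0.99 on the log2 scale, and the receptor chains *Ifngr1* (0.90 and 1.00) and *Ifngr2* (0.60 and 0.66) rose in both genotypes.

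The promoters of *Cxcl9* and *Cxcl10* are shown because these 2 genes answer to interferon gamma and to NF-kB, whose binding letters were searched in RefSeq promoters on GRCm38.p6, 250 bases before to 50 bases after each start. On either strand, the interferon-response core GAAANNGAA occurred in 2812 of 32851 promoters (8.56%) and the kappa-B core GGNNNTTCC in 6070 (18.5%). *Cxcl9* held 1 interferon-response core 175 bases before the start and kappa-B cores at 130 and 42 bases before it. *Cxcl10* held 1 interferon-response core 213 bases before the start and kappa-B cores at 158 and 103 bases before it. Matches stand in capitals in the sequences, which read 5′ to 3′ along the minus strand at chr5:92328030-92328329 for *Cxcl9* and chr5:92348840-92349139 for *Cxcl10*.
Cxcl9: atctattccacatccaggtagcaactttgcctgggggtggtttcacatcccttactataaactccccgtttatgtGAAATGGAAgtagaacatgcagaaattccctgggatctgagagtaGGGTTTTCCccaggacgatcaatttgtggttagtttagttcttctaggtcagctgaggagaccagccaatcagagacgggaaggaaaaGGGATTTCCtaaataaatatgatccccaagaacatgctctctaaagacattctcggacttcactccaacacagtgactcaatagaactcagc
Cxcl10: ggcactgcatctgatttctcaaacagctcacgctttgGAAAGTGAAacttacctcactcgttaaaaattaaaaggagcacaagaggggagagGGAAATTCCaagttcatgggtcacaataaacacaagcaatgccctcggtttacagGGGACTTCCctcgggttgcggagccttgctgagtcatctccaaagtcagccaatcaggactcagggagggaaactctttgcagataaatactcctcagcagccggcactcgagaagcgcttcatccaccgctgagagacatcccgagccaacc

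Promoters were found for 7 of the 9 chemokines, with 2 for *Ccl25*. A kappa-B core occurred in *Ccl20* (80 bases before the start), in *Cx3cl1* (71) and in the first promoter of *Ccl25* (2), and neither core occurred in *Ccl28* or *Ccl6*. The interferon gamma-activated site TTCNNNGAA, held by 8.30% of all promoters, occurred in none of the 7 genes. Of 10 genes of NF-kB signalling, 5 were higher and 1 lower after DSS in WT mice and 4 were higher in KO mice. Of all genes 20.2% were higher and 18.1% lower in WT mice, and 23.2% were higher in KO mice. Among the higher genes were the inhibitors *Nfkbia* (0.53 and 0.90) and *Tnfaip3* (0.65 and 1.26 on the log2 scale). These matches are a description of letters, and binding was not measured.

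*Ccl25* was the only member to pass in the other direction. It went from 11.3 ± 1.34 CPM (SD, 4 mice) to 6.86 ± 0.745 CPM (SD, 3 mice) in WT mice, a log2 fold change of -0.72 (SE 0.17, 95% interval -1.09 to -0.34, edgeR adjusted p 0.00506), with no overlap. In KO mice it went from 8.77 ± 1.56 to 6.73 ± 0.827 CPM, a log2 fold change of -0.38 (SE 0.18, 95% interval -0.76 to -0.01, edgeR adjusted p 0.0862), with overlap. It passed in KO mice without KO replicate 1 (-0.48, edgeR adjusted p 0.0403). *Elavl1*, whose exons share bases with *Ccl25* on the other strand, moved the opposite way (log2 fold changes 0.36 and 0.48, edgeR adjusted p 0.0325 and 0.00496).

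The other 4 members did not pass in either genotype. *Ccl20* had log2 fold changes of 0.81 (SE 0.85) in WT mice and 1.74 (SE 0.89) in KO mice, with edgeR adjusted p of 0.481 and 0.131. Both passed in the fit without WT replicate 1, at 2.45 in WT mice and 1.74 in KO mice, with edgeR adjusted p of 0.00847 and 0.0188. *Ccl28* changed by 0.33 (SE 0.18) and 0.13 on the log2 scale, *Ccl6* by 0.06 and -0.29 (SE 0.17 each), and *Ccl5* by -0.17 and 0.33 (SE 0.74 and 0.73). The T cell markers, whose sums move with *Ccl5*, did not pass the adjusted p in either genotype (0 of 14 in each with edgeR). At the unadjusted p 0 and 1 passed. Of the macrophage and dendritic cell markers 3 of 12 in WT mice and 6 of 12 in KO mice were higher at the adjusted p. Of all genes 20.2% and 23.2% were, so the WT count was near that share.

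Of the receptors, *Ccr1* was higher after DSS in KO mice, 3.85-fold (log2 fold change 1.94, SE 0.44, edgeR adjusted p 0.00212), from 0.372 to 1.10 CPM to 1.69 to 3.70 CPM. It was the 1 of 7 receptors that passed, which became 2 without KO replicate 4 (with *Ccr9*), 2 without the first KO mouse after DSS (with *Ccr10*) and 3 without both WT replicate 1 and KO replicate 4 (with *Ccr9* and *Cxcr3*). In edgeR 5 of 5 neutrophil markers were higher after DSS in KO mice and 1 of 5 in WT mice at the adjusted p. Of all genes 23.2% and 20.2% were, so the WT count was near that share. The part of the neutrophil markers in the *Ccr1* difference was not tested. In WT mice 0 of 7 receptors passed, at the adjusted or the unadjusted p. The decoy receptors moved apart: *Ccrl2*, which presents chemokines without signalling, rose in both genotypes (log2 fold changes 1.45 and 0.87), and *Ackr3*, which takes up chemokines, fell (-1.23 and -1.35), all with adjusted p under 0.05 in edgeR.

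**Figure D4:**
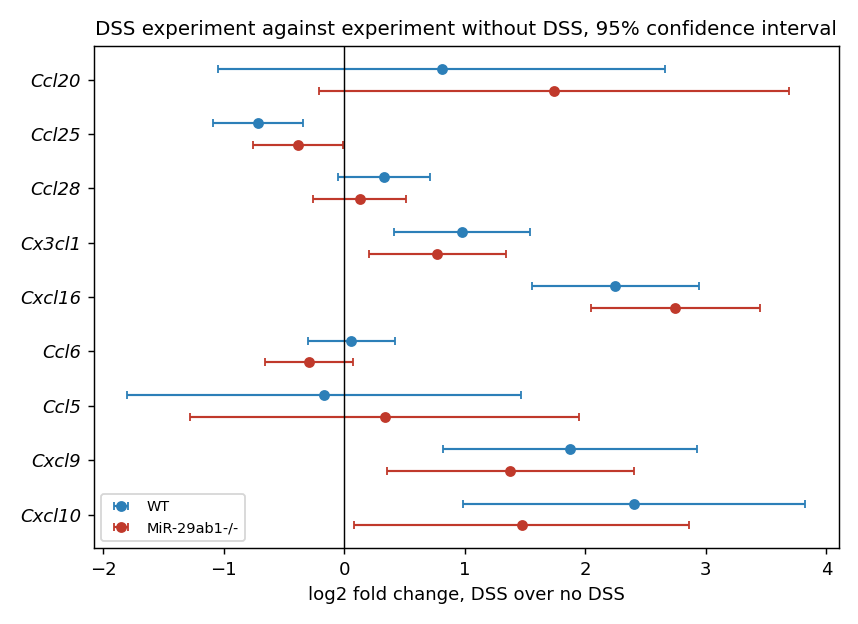
Log2 fold change (x axis, after DSS over without DSS) of the 9 chemokines (y axis) in WT mice and in KO mice, from the edgeR fit of all 14 mice; points are estimates, lines are 95% intervals and the vertical line marks no difference. The intervals of Cxcl16, Cxcl9, Cxcl10 and Cx3cl1 lie above 0 in both genotypes, and that of Ccl25 lies below 0 in both. They are not adjusted for the number of genes tested. The estimate farthest from 0 is that of Cxcl10 in WT mice (2.40) and that of Cxcl16 in KO mice (2.75). The intervals of the genotypes overlap for every gene.

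The genotype difference was not shown to change with DSS for any member. In the interaction term of the 14-mouse fit, 0 of 9 chemokines passed the adjusted p (0.987 for all 9 in edgeR) and 0 of 9 the unadjusted p, where 0 of all 16370 genes (0.0%) passed the adjusted p and 660 (4.03%) the unadjusted p. DESeq2 also gave 0 at the adjusted p over all genes. Estimates ran from -0.93 for *Cxcl10* (95% interval -2.92 to 1.06) to 0.93 for *Ccl20* (95% interval -1.77 to 3.64), and for *Cxcl16* and *Ccl25* they were 0.50 (95% interval -0.49 to 1.49) and 0.33 (95% interval -0.19 to 0.86). The 95% intervals of *Cxcl10*, *Ccl20* and *Ccl5* (-1.80 to 2.80 for *Ccl5*) hold differences of more than 2-fold in both directions.

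*Ccl5* followed the T cell markers from mouse to mouse. Over the 8 mice without DSS its log2 CPM and the log2 of the summed T cell markers had a Pearson's r of 0.992 (exact permutation p 9.92e-05, Benjamini-Hochberg 0.000496 over 5 relations) and a Spearman's rho of 0.952 (exact permutation p 0.00114, Benjamini-Hochberg 0.0057). With the genotype means removed r was 0.993, and without WT replicate 1 and KO replicate 4, the mice farthest from the median, it was 0.970 over 6 mice. After DSS, in relations added after seeing the data, r was 0.940 over 6 mice (exact permutation p 0.00694, Benjamini-Hochberg 0.0174) and rho 0.943 (exact permutation p 0.0167), and r was 0.822 over 4 mice without the 2 farthest. *Ccl5* is not in the marker list, and the points share depth and tissue makeup, whose part was not tested.

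*Cxcl16* and the epithelial sum had no such relation without DSS (r -0.392, exact permutation p 0.372; rho -0.19, exact permutation p 0.665), and r was -0.0077 over 6 mice without the 2 farthest. After DSS r was 0.947 over 6 mice (exact permutation p 0.00694, Benjamini-Hochberg 0.0174) and 0.780 over 4 without the 2 farthest. The other 3 relations did not pass in either experiment. Without DSS, *Cxcl9* with *Cxcl10* had r 0.413 (exact permutation p 0.316) and -0.398 without the 2 farthest mice, *Ccl6* with the macrophage and dendritic cell sum r -0.248 (exact permutation p 0.554) and -0.856 without them, and *Cx3cl1* with the epithelial sum r -0.392 (exact permutation p 0.339) and 0.581 without them. After DSS the same 3 had r 0.829, -0.785 and 0.162, with exact permutation p of 0.0653, 0.0722 and 0.764, and without the 2 farthest mice r was -0.581, -0.879 and 0.688 over 4 mice. The r of *Cxcl9* with *Cxcl10* thus turned sign without the 2 farthest mice in both experiments. Leaving out the farthest mice also narrows the range, so a relation of the 2 genes was neither shown nor excluded.

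**Figure D5:**
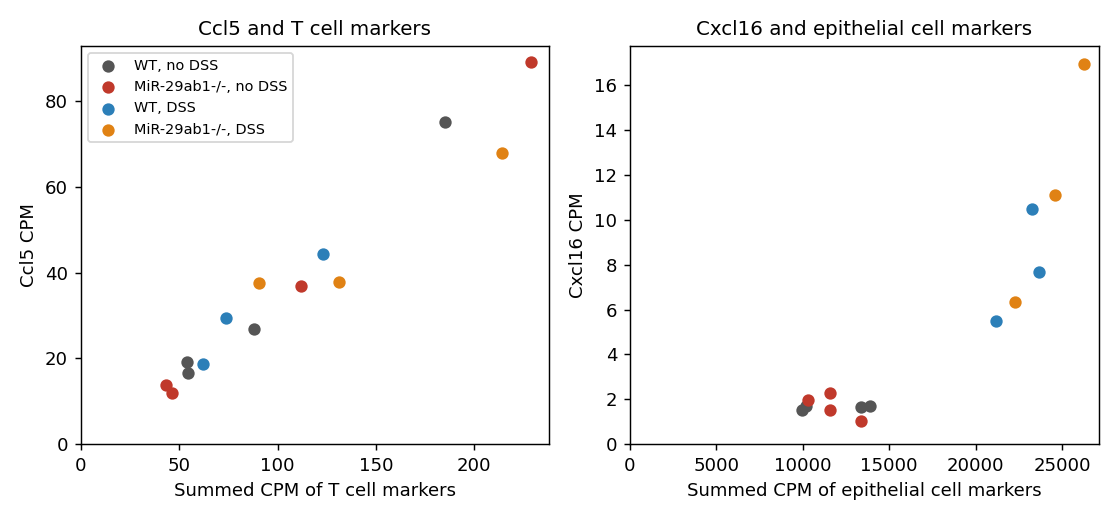
Left, Ccl5 in CPM (y axis) against the summed CPM of 14 T cell markers (x axis); right, Cxcl16 in CPM (y axis) against the summed CPM of 10 epithelial markers (x axis); each point is 1 of the 14 mice, coloured by group. Ccl5 rises with the T cell sum in all 4 groups together, and Cxcl16 separates into 8 mice without DSS at 1.05 to 2.27 CPM and 6 mice after DSS between 5.48 and 17.0 CPM.

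The genes whose log2 CPM was most like that of *Ccl5* over the 8 mice without DSS were *Gimap6* (r 0.996), *Chsy1* (0.994) and *Tespa1* (0.994), and over the 6 mice after DSS the same pairs had r of 0.817, 0.953 and 0.650. For *Cxcl9* they were *Psme1*, a subunit that activates the proteasome (0.971, and 0.910 after DSS), the MHC class II gene *H2-Ab1* (0.971, and 0.753 after DSS) and *Gm15421* (0.956, and 0.804 after DSS). For *Ccl6* they were *Klk1* (0.969, and 0.861 after DSS), *Ddit4l* (0.967) and *Usp53* (0.950, and 0.708 after DSS). For the other 6 chemokines the like genes given here had r of 0.944 to 0.977 without DSS. After DSS r with *Ccl20* was 0.201 for *Rbl2*, -0.540 for *Bcam* and 0.127 for *Nfkbil1*. With *Ccl25* it was -0.555 for *Gsdme*, 0.163 for *Rmdn2* and 0.844 for *Stub1*, and with *Ccl28* it was 0.0854 for *Ogfod1*, 0.873 for *Clpx* and 0.644 for *Unc119*. With *Cxcl10* it was 0.128 for *Slc25a20*, -0.258 for *Gm45540* and -0.239 for *Hnrnpl*, and with *Cxcl16* it was -0.713 for *Dscc1*, 0.415 for *Dnajc19-ps* and -0.393 for *Mynn*. With *Cx3cl1* it was 0.273 for *Bod1l* and 0.373 for *Jmjd1c*. Such likeness was picked as the highest of all genes over 8 mice and is a description.

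Other chemokines were read beside the 9. Without DSS, 0 of 2 other CC chemokines and 1 of 3 other CXC or C chemokines tested passed an unadjusted p under 0.05 between the genotypes (*Pf4*, log2 fold change 0.99). After DSS, 3 of 6 other CC chemokines passed it with higher levels in KO mice (*Ccl3* 1.36, *Ccl4* 1.35 and *Ccl22* 1.28 on the log2 scale), as did 2 of 7 other CXC chemokines (*Cxcl5* 2.06 and *Cxcl1* 2.00), none at the adjusted p in edgeR. *Ccl4* lay between 1.03 and 1.92 CPM in WT mice and between 2.16 and 4.54 CPM in KO mice. *Cxcl1* and *Cxcl5* draw neutrophils, whose marker sums are given above, and *Cxcl1* lay between 0.709 and 1.32 CPM in WT mice and between 0.705 and 6.75 CPM in KO mice, with the lowest KO mouse below every WT mouse. Between the experiments *Cxcl1* rose by 1.78 and 3.51 on the log2 scale in WT and KO mice (edgeR adjusted p 0.0345 and 0.000256).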

How the data were processed

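RNA of 14 mice was compared: 4 WT and 4 *MiR-29ab1-/-* (KO) mice without DSS and 3 of each after DSS. Total RNA was extracted with TRIzol and libraries were made with a directional kit. The authors deposited counts of the reads on each gene, without normalization, in a table for each experiment. The processing notes in the labels name HISAT2 and DESeq2, while the counting tool, the genome build and the use of strand are not given in the sources used here. Of the genes found in GENCODE vM21 on GRCm38, 54851 of 55144 without DSS and 53499 of 54409 after DSS had the same position there, so positions are given on GRCm38. The 14 FPKM columns and 10 columns of the authors' own comparison (fold changes and p-values) were not used.

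Tests were run on these counts in edgeR 4.0.16 (R 4.3.3; filterByExpr at 10 counts and a total of 15, TMM scaling, glmQLFit and glmQLFTest with robust estimation, Benjamini-Hochberg adjustment over all genes tested). Genotypes were compared within each table. DSS against no DSS and the interaction were taken from 1 fit over the 54378 genes in both tables. Levels are CPM from the TMM factors of that fit, and correlations used log2 CPM with a prior count of 2. Genes under the filter were compared by two-sided exact permutation of the mean CPM. Total counts per mouse were 14231157 to 23153149, and the floor of 3 reads covers counting error only. Nothing says that samples are technical repeats, and p-values measure the spread between these mice. Results for 1 receptor are not reported here.

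The members, the receptors and all other gene lists were chosen with earlier results of these data known. Named genes are the 9 chemokines, 8 of their receptors, at most 4 genes of another list with an unadjusted p under 0.05, and the 3 genes most like each member over the 8 mice without DSS. On simulated counts with 2-fold changes, edgeR recovered 105 of 191 genes (55.0%) without DSS and 94 of 192 (49.0%) after DSS, none in the wrong direction. It also called 11 and 10 unchanged genes. DESeq2 recovered 128 and 115 of the same genes and called 35 and 27 unchanged ones. The alternatives tried were RLE size factors, DESeq2 1.42.0, no filter or at least 10 counts in every mouse, genes of the same length in both tables, all 14 mice in 1 model, the replicate number as a block, and each mouse left out in turn. Leaving out WT replicate 1 and KO replicate 4 together, and the correlations after DSS, were added after seeing the data.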

Additional observations from a re-analysis of the deposited data

Results flagged for a closer look

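In 34 groups of 4 mice without DSS (9 chemokines and 8 receptors in 2 genotypes), the highest or the lowest mouse was compared with the rest of its group by Dixon's gap ratio with a critical value of 0.829, which chance exceeds in about 1 of 20 groups. It was exceeded 2 times, each time by WT replicate 1. *Ccl20* was at 12.5 CPM in that mouse and at 0.520 to 1.88 CPM in the other 3 WT mice. *Cxcr6*, the receptor of *Cxcl16*, was at 7.02 CPM beside 1.49 to 2.21 CPM. The same mouse had the highest T cell and NK cell marker sums of its group, at 185 and 159.6 CPM. Groups of 3 mice after DSS were not tested in this way.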

How the results depend on the processing

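No chemokine passed the adjusted p between the genotypes under any alternative, and *Cxcl16* passed between the experiments under every one computed. At the unadjusted p, 0 of 9 chemokines passed without DSS, which became 1 without the filter on low counts (*Cxcl9*), 1 with all 14 mice in 1 model (*Ccl25*) and 0 to 2 with single mice left out. After DSS 0 of 9 became 1 with DESeq2 (*Ccl5*) and 0 to 3 with single mice left out, the 3 without the third KO mouse (*Ccl6* -0.34, *Ccl28* -0.27 and *Cxcl16* 0.83). The receptors that passed after DSS, 3 of 6, became 1 with all 14 mice in 1 model and 1 to 4 with single mice left out, and without DSS 0 became 0 to 1. The 3 chemokines higher after DSS in KO mice became 1 without the filter and 1 to 4 with mice left out, 1 of them without the first KO mouse after DSS.

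The following fold changes turned sign when mice were left out. Without DSS the ranges were -1.74 to 0.51 for *Ccl20*, -0.0074 to 0.30 for *Ccl28*, -0.74 to 0.88 for *Ccl5*, -0.016 to 0.24 for *Ccl6*, -0.16 to 0.95 for *Cxcl10*, -0.16 to 0.23 for *Cxcl16* and -0.12 to 0.25 for *Cx3cl1*. Between the genotypes after DSS they were -0.60 to 0.33 for *Ccl20*, -0.13 to 0.052 for *Ccl25*, -0.27 to 0.052 for *Ccl28*, -0.0069 to 0.70 for *Cxcl9* and -0.85 to 0.44 for *Cxcl10*. Between the experiments they were -0.51 to 0.55 for *Ccl5* and -0.014 to 0.14 for *Ccl6* in WT mice, and -0.082 to 0.29 for *Ccl28* and -0.0039 to 1.19 for *Ccl5* in KO mice. In the interaction they were -0.75 to 1.55 for *Ccl20* and -0.22 to 1.36 for *Ccl5*. None of these passed the adjusted p with all mice, and the cause was not tested.

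With the replicate number as a block, *Ccl5* (-0.027) and *Cxcl16* (-0.00084) turned sign without DSS and 0 of 9 chemokines passed, as without the block. Same-numbered WT and KO mice did not deviate together (correlations -0.03, 0.15, -0.19 and -0.13), so the numbers were not taken as pairs. No paired analysis was possible after DSS or across the experiments because the deposited columns after DSS carry no number of the labels. Over all genes without DSS, 3 passed the adjusted p with edgeR, 23 with DESeq2, 11 without the filter and 0 with at least 10 counts in every mouse, and after DSS these counts were 2, 59, 46 and 0, with 93 without the third KO mouse.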
